A study of Homo sapiens with 6 samples.

Results

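Kinesins, cytoplasmic dyneins and myosins are the motor proteins that turn ATP into movement along microtubules (kinesins and dyneins) or actin filaments (myosins). Most kinesins walk toward the plus end of a microtubule and cytoplasmic dynein toward the minus end, so that between them they carry vesicles, organelles and mRNA outward and inward, while a separate set of kinesins builds the mitotic spindle. Signalling by cAMP is known to steer motor-driven transport in some cells, such as the movement of melanosomes in pigment cells.

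The motor genes were chosen by their symbols (KIF or KIFC kinesins, DYNC1 and DYNC2 subunits, and numbered MYO myosins). The rule itself uses no measured value, but it was chosen with earlier results of these data known. The rule found 73 genes of 30960 in the table, and 59 of the 73 reached 1 CPM (the usual read count scaled to the size of its library) in at least 3 of the 6 libraries and entered the test. They comprise 15 transport kinesins, 13 kinesins of mitosis and cytokinesis, 13 other kinesins (ciliary, microtubule-depolymerising and less studied members), 7 cytoplasmic dynein subunits and 25 myosins. The myosins here are the unconventional ones, since the muscle and non-muscle MYH genes carry other symbols, and CENPE, a kinesin without a KIF symbol, also falls outside the rule.

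RNA came from HEK293, an established human embryonic kidney cell line, in 2 groups of 3 libraries named A, B and C. The PKI cells received a plasmid for GFP fused to PKI1-24, a fragment of the protein kinase A (PKA) inhibitor that blocks the catalytic subunit, and the inPKI cells received GFP fused to inPKI1-24, which the labels call the control. Both groups were transfected with a lipid reagent at 158 ng of plasmid per square centimetre and harvested after 48 h, and both therefore carry a GFP fusion; the share of cells that took up plasmid is not given in the sources used here. Separate cultures are not stated for the libraries, so a p-value here is set against the spread of these 6 libraries alone, and that spread may be technical. In bulk RNA, fewer cells with a transcript and less of it per cell cannot be told apart.

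Reads were recovered from the CPM steps and summed over the 30960 genes with deposited values. They came to 17244715 to 23589438 reads a library, of which 76836 to 101849 were motor reads. Reads outside these genes are not in those totals. PKIA, whose reads can come from the plasmid as well as from the cells, measured 43.9 ± 1.96 CPM in PKI and 9.68 ± 1.46 CPM in inPKI (SD, n = 3 each), so the libraries separated by their labels. PKI C had the fewest reads and the lowest CPM sum (754299, against 773801 to 785007 in the other 5 libraries). All 8 HEK293 markers were detected, and summed to 909 to 1032 CPM in PKI libraries and 1017 to 1045 CPM in inPKI libraries. The muscle markers present summed to under 1 CPM in every library, and the leukocyte markers to 1.88 to 2.51 CPM in PKI libraries and 1.68 to 2.54 CPM in inPKI libraries, with CD3E at 0 throughout. Of the fibroblast list DCN was at 0 throughout, and the list summed to 20.2 to 23.8 CPM in PKI libraries and 19.5 to 22.1 CPM in inPKI libraries. The keratinocyte list summed to 26.03 to 30.54 CPM in PKI libraries and 28.78 to 53.44 CPM in inPKI libraries. Its high end was inPKI C alone, with KRT5 at 26.47 CPM, against 13.22 and 10.25 CPM in inPKI A and B, and its part in the results below was not tested.

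HEK293 cells expressed motors of every class. Levels between genes are compared here as CPM per kb of the longest annotated transcript (GENCODE 29). Among transport kinesins the highest level was that of KIF5B, the ubiquitous kinesin-1 heavy chain, at 34.4 CPM per kb in PKI and 33.8 CPM per kb in inPKI, followed by KIF1C, a vesicle carrier of the kinesin-3 family, at 26.7 CPM per kb in PKI and 27.1 CPM per kb in inPKI. KIF1A, the neuronal kinesin-3 that moves synaptic vesicle precursors, stood far lower, at 3.18 CPM per kb in PKI and 2.34 CPM per kb in inPKI. The neuron-enriched kinesin-1 genes were of the same order as KIF1A: KIF5C measured 3.75 CPM per kb in PKI and 3.63 in inPKI, and KIF5A 3.20 CPM per kb in PKI and 3.09 in inPKI.

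The mitotic kinesins were led by KIF22, a chromokinesin that pushes chromosome arms, at 47.4 CPM per kb in PKI and 48.9 CPM per kb in inPKI. KIF11, which crosslinks and slides spindle microtubules apart, measured 28.5 CPM per kb in PKI and 28.4 CPM per kb in inPKI. Among the other kinesins KIF2A, a microtubule depolymerase, was highest at 19.6 CPM per kb in PKI and 19.1 in inPKI. KIF7, which acts in Hedgehog signalling at the tip of the cilium, followed at 7.78 CPM per kb in PKI and 7.47 in inPKI.

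Within dynein 3 subunits lay close together per kb: DYNC1LI2, a light intermediate chain, at 23.4 CPM per kb in PKI and 22.3 in inPKI, the heavy chain DYNC1H1 at 21.9 CPM per kb in PKI and 18.1 in inPKI, and the intermediate chain DYNC1I2 at 21.6 CPM per kb in PKI and 22.1 in inPKI. The intermediate chain DYNC1I1, known from neurons, was the lowest dynein subunit covered by the rule, at 0.485 CPM per kb in PKI and 0.465 in inPKI. It had 24 to 52 reads in PKI libraries and 30 to 40 in inPKI libraries. Among the myosins MYO1C, a membrane-linking class I gene, stood highest, at 23.9 CPM per kb in both groups.

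**Figure D1:**
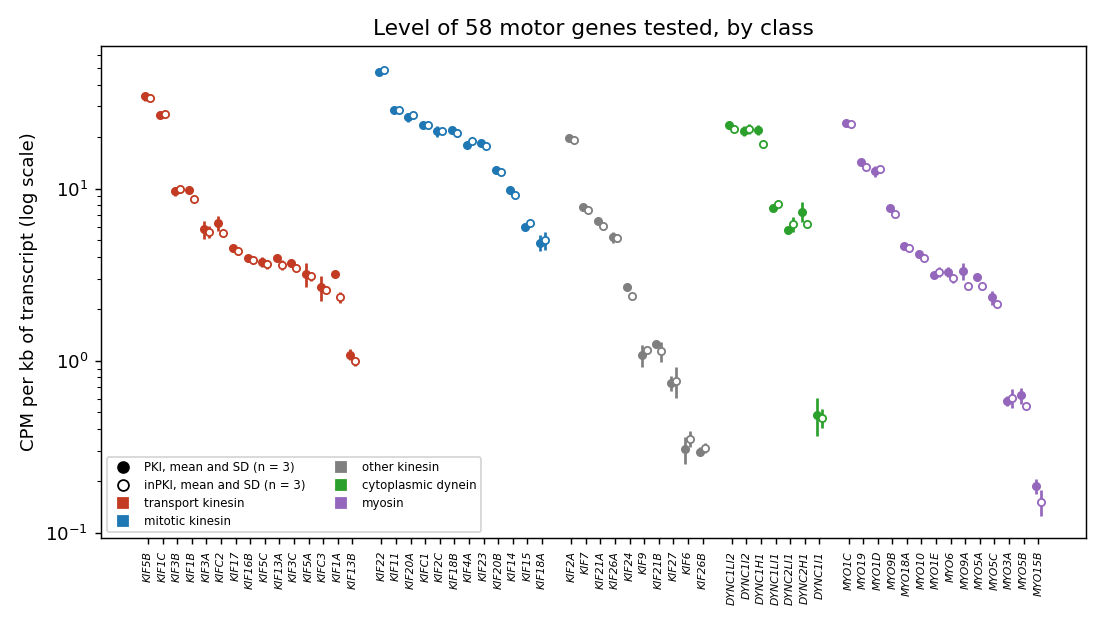
Level of 58 of the 59 motor genes tested, in CPM per kb of the longest annotated transcript on a log axis, by class (filled points PKI, open points inPKI; mean and SD over 3 libraries each). KIF22, KIF5B and KIF11 were the highest, and for most genes the filled and open points lie almost side by side.

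The comparison of PKI with inPKI asked which motor genes differ in RNA level when PKA is the target of the inhibitor fragment. KIF1A rose in PKI, the 1 motor gene past an adjusted p of 0.05, and 0 motor genes fell. KIF1A measured 29.1, 29.4 and 29.4 CPM in PKI A, B and C, against 23.4, 20.2 and 21.2 CPM in inPKI A, B and C. All 3 PKI libraries (SD 0.166 CPM) lay above all 3 inPKI libraries (SD 1.655 CPM). The values rested on 672 to 883 reads in PKI libraries and 512 to 600 reads in inPKI libraries. The narrow spread in PKI was not set against counting error at these read counts. The ratio of mean CPM was 1.36, and the log2 change (PKI minus inPKI, computed from log2(CPM + 1) values) was 0.43 ± 0.068 (SE; limma adjusted p = 0.0220 over 14275 genes). KIF1A (ENSG00000130294.15) is annotated on chromosome 2, 240713761 to 240821036 on the minus strand in GRCh38.

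The call of 1 in 59 motor genes compares with 0.0981% of all genes tested called higher and 0.028% called lower at that threshold. EdgeR on the recovered reads also called KIF1A higher and no other motor gene (adjusted p = 0.0293; 0.0701% of all genes called higher), and 0 lower (0.00701% of all genes). DESeq2 called 4 motor genes higher, KIF1A, DYNC1H1, KIF1B and MYO9A, against 0.834% of all genes, and 0 lower, against 0.939% of all genes. The authors' deposited table gives KIF1A a signed fold change of 1.368 in the direction of PKI with an adjusted p of 0.157, and 0 motor genes below 0.05 in it; its means include reads from libraries not analysed here. The call of KIF1A was lost without inPKI B (adjusted p = 0.16) or inPKI C (0.101), and over all alternatives its adjusted p ran from 0.000193 to 0.171.

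Before adjustment, 9 of the 59 motor genes were higher in PKI at a limma p below 0.05, 15.3%, where all genes tested gave 7.53%, and 0 lower, where all genes gave 6.16%. Apart from KIF1A these genes did not pass the adjusted threshold, and their values follow as measured. They are KIF1B and KIFC2 among the transport kinesins, KIF24 among the other kinesins, both dynein heavy chains, and the myosins MYO9A, MYO5A and MYO9B. In 15 of the 59 motor genes every PKI library lay above every inPKI library, 25.4% against 10.9% of all genes, and in 2 every PKI library lay below, 3.39% against 8.88% of all genes. Those 2 were KIF4A, a chromokinesin, and DYNC1LI1, a dynein light intermediate chain.

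**Figure D2:**
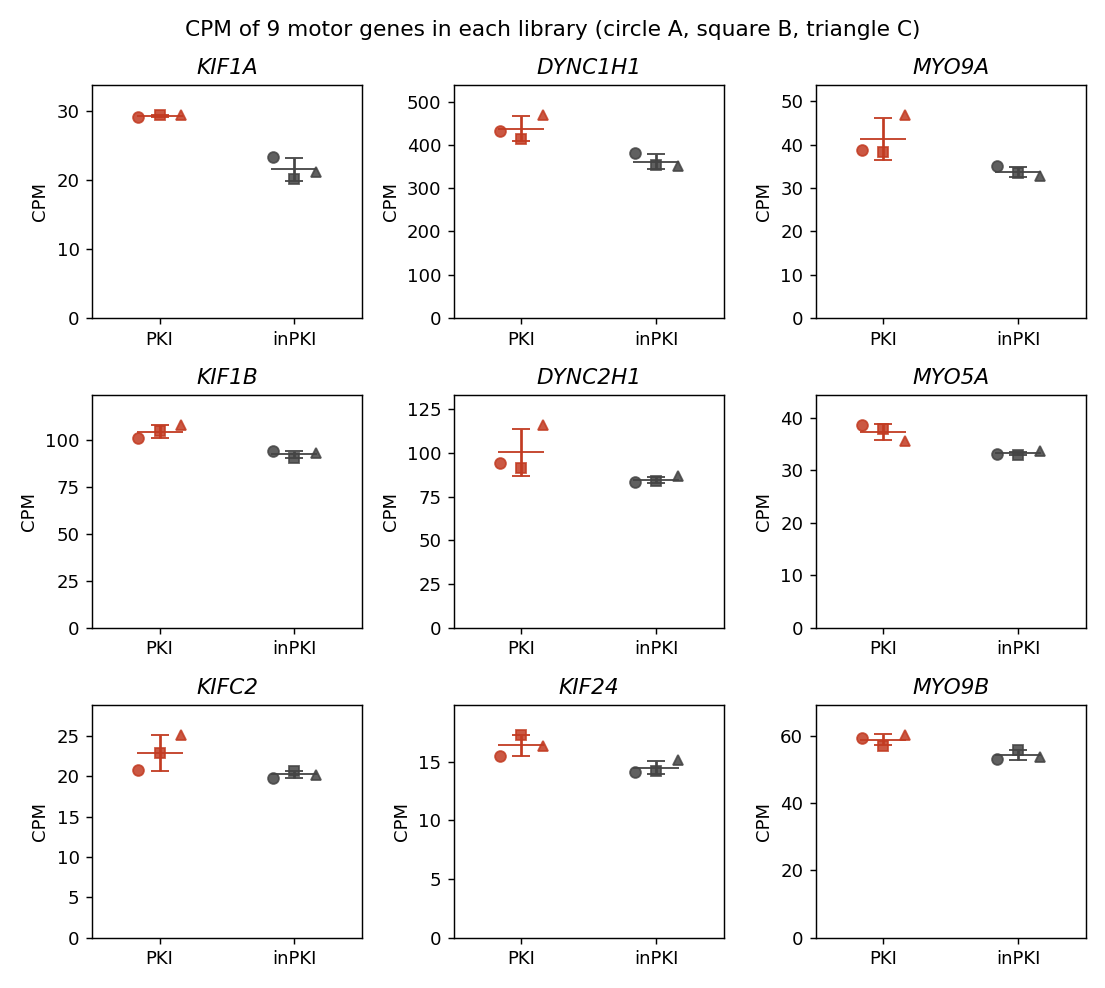
CPM in each library for the 9 motor genes at an unadjusted p below 0.05, PKI left and inPKI right (circle A, square B, triangle C; horizontal line the mean, bars the SD of 3 libraries). In each panel the PKI points stand above the inPKI points, and in 7 of the 9, all but MYO5A and KIF24, PKI C is the highest PKI library, in KIF1A almost level with PKI B.

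Transport kinesins carry membranes and protein complexes. Of 15 tested, 1 rose (KIF1A), 0 fell and 14 did not pass; 13 had a log2 change above 0, against 47.4% of all genes tested, and the class median was 0.045, against -0.0074 over all genes. Without inPKI A the class median was 0.087, and with the length trend removed 10 of the 15 were above 0. KIF1B, a close relative of KIF1A that carries mitochondria and synaptic vesicle precursors, measured 100.9, 104.7 and 107.9 CPM in PKI A, B and C, against 94.0, 90.2 and 92.9 CPM in inPKI A, B and C. Its groups did not overlap, and its log2 change was 0.18 ± 0.052 (SE, limma adjusted p = 0.179). The third member of that subfamily, KIF1C, overlapped, with 216, 216 and 202 CPM in PKI and 224, 212 and 209 CPM in inPKI (log2 change -0.023 ± 0.055, SE).

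KIFC2, a kinesin with its motor at the C-terminal end, measured 20.7, 22.8 and 25.1 CPM in PKI, against 19.8, 20.7 and 20.2 CPM in inPKI (limma adjusted p = 0.349). Its PKI libraries were spread widely, with PKI A just above the highest inPKI library, and its exons share 791 annotated bases with FOXH1 on the opposite strand. KIF13A, which moves endosomes and the mannose-6-phosphate receptor, measured 27.1, 27.7 and 26.8 CPM in PKI and 27.0, 24.5 and 23.7 CPM in inPKI, with PKI C below inPKI A. KIF5B, the highest transport kinesin per kb, measured 201, 214 and 191 CPM in PKI and 203, 198 and 194 CPM in inPKI, a log2 change of 0.025 ± 0.056 (SE). The remaining transport kinesins, KIF3A, KIF3B, KIF3C, KIF5A, KIF5C, KIF13B, KIF16B, KIF17 and KIFC3, had log2 changes from -0.037 (KIF3B) to 0.12 (KIF13B). KIF3A and KIF3B pair in the kinesin-2 motor of cilia, and their log2 changes were 0.042 and -0.037.

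The mitotic kinesins had the narrowest range of log2 changes of the 5 classes. They also had the shortest median transcript, 3.97 kb against 4.51 to 8.67 kb in the other classes. The part of length in this difference was not tested. Of 12 tested, 0 rose and 0 fell in limma at the adjusted threshold, 0 passed an unadjusted p of 0.05, and 0 passed by edgeR or DESeq2. Log2 changes ran from -0.083 to 0.091 with a median of -0.0091, and 5 of 12 were above 0. The summed level of the 12 was 906.6 ± 22.99 CPM in PKI and 904.6 ± 2.964 CPM in inPKI (SD, n = 3 each).

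KIF14, which acts in cytokinesis, measured 69.3, 73.7 and 70.5 CPM in PKI and 68.7, 64.9 and 66.6 CPM in inPKI. KIF4A measured 80.1, 77.9 and 74.05 CPM in PKI and 81.1, 81.7 and 83.1 CPM in inPKI. In both genes the groups did not overlap, with PKI higher in KIF14 and lower in KIF4A. KIF23, the kinesin of the central spindle, measured 67.4, 71.1 and 68.1 CPM in PKI and 67.25, 65.1 and 64.45 CPM in inPKI, with PKI A barely above inPKI A.

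KIF18B, a depolymerase of astral microtubules, overlapped, with 93.9, 89.0 and 95.5 CPM in PKI and 89.4, 83.4 and 93.7 CPM in inPKI. KIF11 measured 138, 142 and 136 CPM in PKI and 135, 142 and 137 CPM in inPKI, and KIF22 measured 117, 123 and 116 CPM in PKI and 120, 125 and 122 CPM in inPKI; in both the groups overlapped. KIF2C, KIF15, KIF18A, KIF20A, KIF20B and KIFC1 had log2 changes between -0.061 (KIF15) and 0.045 (KIF20B). The 15 mitosis genes listed for comparison that are not motors gave 0 calls in limma. DESeq2 called CENPF and MKI67 higher, where it called 0.834% of all genes higher, and limma called MKI67 higher without PKI B. The longest transcripts of CENPF and MKI67 were 10.3 and 12.7 kb, and the part of length in these calls was not tested. The smallest limma p in that list was that of MKI67, which cycling cells express, at 369 ± 33.5 CPM in PKI and 309 ± 11.7 CPM in inPKI (SD, n = 3 each; limma adjusted p = 0.157).

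Among the other kinesins 0 of 10 tested passed in limma, edgeR or DESeq2, with 1 at an unadjusted p below 0.05 and a class median of 0.025. KIF24, which acts at the centriole and restrains cilium formation, measured 15.5, 17.3 and 16.4 CPM in PKI, against 14.1, 14.2 and 15.1 CPM in inPKI, with no overlap (limma adjusted p = 0.350). KIF21A and KIF21B, which restrain microtubule growth, had log2 changes of 0.093 ± 0.060 and 0.13 ± 0.094 (SE). KIF21A measured 41.6, 44.9 and 42.2 CPM in PKI and 41.1, 37.9 and 41.6 CPM in inPKI, and KIF21B measured 12.2, 11.9 and 13.0 CPM in PKI and 10.2, 10.5 and 12.95 CPM in inPKI. In KIF21B inPKI C lay among the PKI libraries.

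KIF6 had the most negative log2 change of any motor gene tested, -0.16 ± 0.13 (SE), at 2.70, 2.33 and 3.32 CPM in PKI and 3.39, 2.81 and 3.39 CPM in inPKI. Its groups overlapped. KIF2A measured 65.5, 68.3 and 63.4 CPM in PKI and 65.3, 63.6 and 63.2 CPM in inPKI. KIF7 measured 35.7, 34.0 and 36.4 CPM in PKI and 33.1, 33.3 and 35.5 CPM in inPKI. KIF9, KIF26A, KIF26B and KIF27 had log2 changes between -0.089 (KIF9) and 0.014 (KIF26A).

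In cytoplasmic dynein the heavy chains had the highest log2 changes. The 5 smaller subunits covered by the rule ran from -0.099 (DYNC2LI1) to 0.069 (DYNC1LI2). Of 7 subunits tested, 0 passed in limma or edgeR and 1 (DYNC1H1) in DESeq2. DYNC1H1, the motor subunit of the dynein that carries cargo inward, measured 431, 413 and 468 CPM in PKI A, B and C, against 381, 353 and 351 CPM in inPKI A, B and C. Every PKI library lay above every inPKI library, and the log2 change was 0.27 ± 0.065 (SE, limma adjusted p = 0.124). DYNC2H1, the heavy chain of the dynein that returns material from the tip of the cilium, measured 94.1, 91.7 and 116 CPM in PKI, against 83.6, 83.8 and 86.7 CPM in inPKI (log2 change 0.24 ± 0.075, SE; limma adjusted p = 0.200). PKI C stood well above PKI A and B there, and without PKI C the log2 change was 0.13.

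Among the smaller subunits, DYNC1LI1 measured 37.5, 37.9 and 35.7 CPM in PKI and 39.4, 39.2 and 38.7 CPM in inPKI, with no overlap and a log2 change of -0.078 ± 0.056 (SE, limma adjusted p = 0.559). DYNC1LI2 measured 99.5, 107.3 and 110.2 CPM in PKI and 101, 99.1 and 102 CPM in inPKI, with PKI A inside the inPKI range. DYNC1I2 measured 54.8, 60.4 and 53.9 CPM in PKI and 55.8, 61.9 and 55.0 CPM in inPKI. The difference between the heavy chains and the smaller subunits was not tested.

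DYNC1H1 (ENSG00000197102.10, chromosome 14, 101964510 to 102056443 in GRCh38) weighs on any sum over the motor genes. All 73 together came to 3363 ± 24.8 CPM in PKI and 3206 ± 38.9 CPM in inPKI (SD, n = 3 each), a difference of 157 CPM, of which DYNC1H1 alone gave 76.0 CPM. Without it the sum was 2909, 2976 and 2892 CPM in PKI A, B and C, against 2869, 2822 and 2843 CPM in inPKI A, B and C.

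Of 15 myosins tested, 0 passed in limma or edgeR and 1 (MYO9A) in DESeq2, while 11 had a log2 change above 0 (47.4% of all genes tested did) and the class median was 0.086. With the length trend removed 8 of the 15 were above 0 and the class median was 0.024. MYO9A and MYO9B are myosins whose tails switch off the GTPase RhoA. MYO9A measured 38.8, 38.4 and 46.8 CPM in PKI, against 35.1, 33.4 and 32.8 CPM in inPKI, a log2 change of 0.28 ± 0.074 (SE, limma adjusted p = 0.151), with PKI C again highest; without PKI C the log2 change was 0.19. MYO9B measured 59.2, 57.0 and 60.2 CPM in PKI, against 53.0, 55.9 and 53.8 CPM in inPKI (limma adjusted p = 0.363).

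MYO5A, which carries melanosomes and other vesicles along actin, measured 38.6, 37.8 and 35.5 CPM in PKI, against 33.1, 32.9 and 33.6 CPM in inPKI, a log2 change of 0.16 ± 0.058 (SE, limma adjusted p = 0.256). Here PKI C was the lowest PKI library. MYO19, a motor of mitochondria, measured 82.6, 80.6 and 81.9 CPM in PKI and 77.7, 74.8 and 78.3 CPM in inPKI, with no overlap and a log2 change of 0.086 ± 0.051 (SE). MYO1C measured 123, 123 and 117 CPM in PKI and 119, 118 and 125 CPM in inPKI, and its groups overlapped (log2 change 0.0028 ± 0.052, SE). MYO1D, MYO1E, MYO3A, MYO5B, MYO5C, MYO6, MYO10, MYO15B and MYO18A had log2 changes between -0.061 (MYO1E) and 0.18 (MYO15B).

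**Figure D3:**
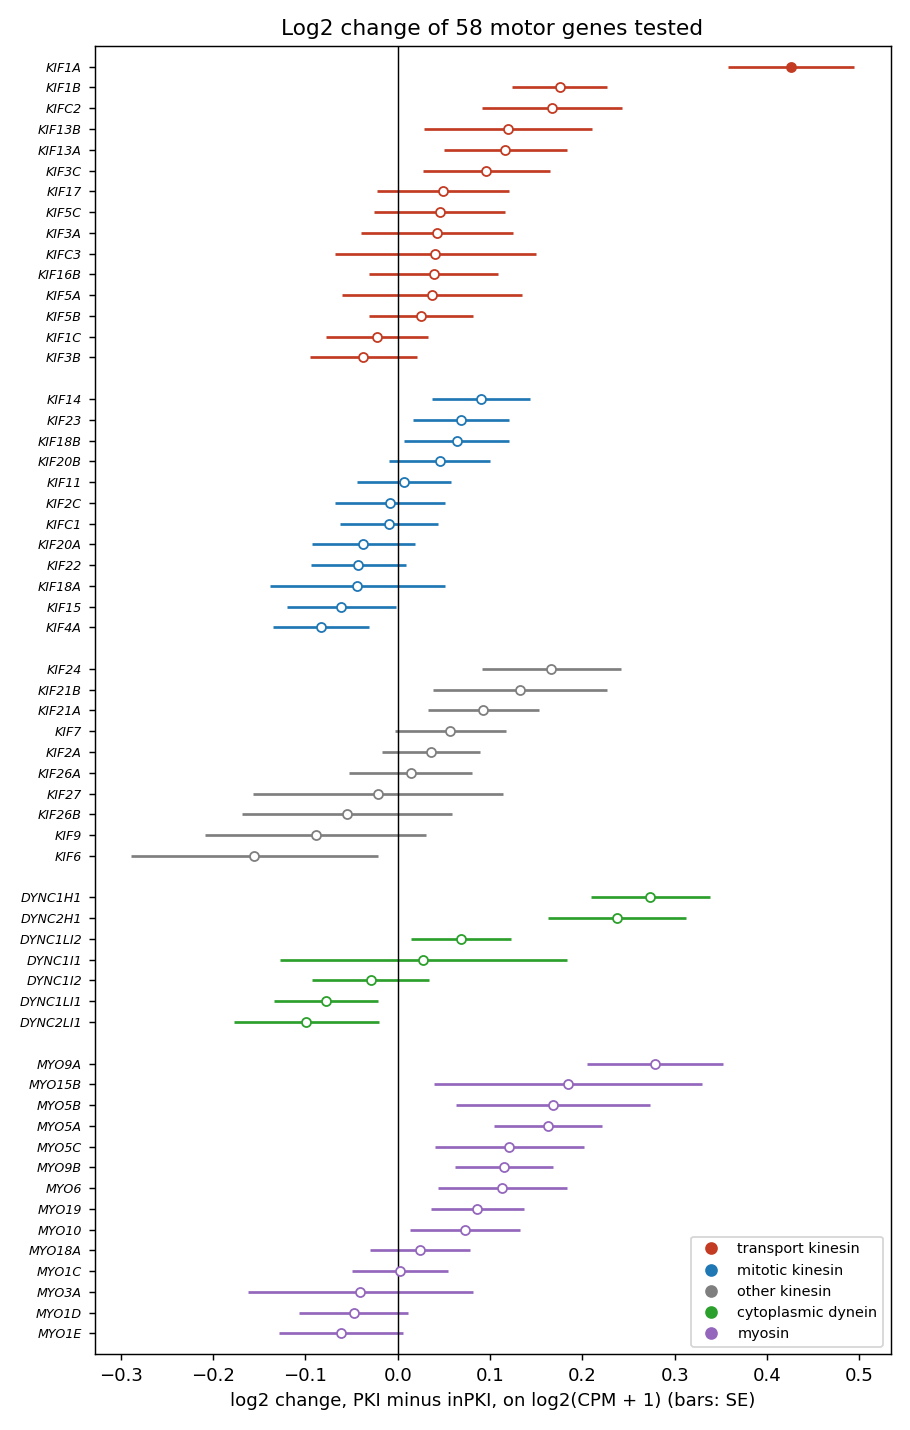
Log2 change (PKI minus inPKI) of log2(CPM + 1) values, with its SE, for 58 of the 59 motor genes tested, grouped by class and sorted within it (filled point adjusted p below 0.05, open point not). KIF1A stands alone as a filled point at 0.43, the mitotic kinesins sit on both sides of 0, and most transport kinesins and myosins lie to the right of 0.

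The other 14 motor genes did not enter the test, and gave at most 30 reads in a library. MYO15A, the myosin of hair cell stereocilia, had 30, 22 and 13 reads in PKI and 8, 13 and 10 reads in inPKI. KIF4B, an intronless copy of KIF4A with which it can share reads, had 6, 13 and 12 reads in PKI and 25, 14 and 18 reads in inPKI. MYO1F and KIF25 gave 10 to 29 reads a library, and KIF12 gave 5 to 15. MYO1A, MYO1G, MYO1H, MYO3B, MYO7A, MYO16, MYO18B and KIF19 gave 0 to 7 reads. MYO7B, a brush border myosin, gave 0 reads in all 6 libraries, which at 3 reads per library allows up to 0.131 CPM in the shallowest library, counting error only. MYO15A and MYO16 had every PKI library above every inPKI library, and MYO1H every PKI library below in CPM. MYO16 rested on 2, 2 and 2 reads in PKI and 0, 1 and 0 reads in inPKI. MYO1H had 1 read in both PKI B and inPKI A, so those 2 libraries differ only by scaling to library size. The share of untested genes separated in this way was not counted. With no filter on low values 72 motor genes were tested, and 11 were higher and 2 lower at an unadjusted p below 0.05, with 0 past the adjusted threshold. Of all 28891 genes in that setting, 2631 were at an unadjusted limma p below 0.05 in either direction, and 4 passed the adjusted threshold.

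Of the 9 genes at an unadjusted p below 0.05, 6 have a transcript of 8 kb or more, a property the rule did not use. The longest annotated transcripts were 20.0 kb for DYNC1H1, 13.7 kb for DYNC2H1, 12.4 kb for MYO9A, 12.2 kb for MYO5A, 10.7 kb for KIF1B and 9.22 kb for KIF1A, and the other 3 were 7.62 kb (MYO9B), 6.13 kb (KIF24) and 3.65 kb (KIFC2). Across the 59 motor genes the log2 change and the log10 transcript length had r = 0.54 and rho = 0.525, as a description over genes that share their libraries and are not independent. Across 14242 tested genes with a known length the same values were r = 0.325 and rho = 0.45.

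Motor genes are best read against other genes of their length. Of 16 tested motor genes with a transcript of 8 kb or more, 6 were higher in PKI at an unadjusted p below 0.05, 37.5%, and their median log2 change was 0.15. Of 1202 genes of that length that are not motors, 423 were higher, 35.2%, with a median of 0.12. The share among long motor genes was thus near that of other long genes. For transcripts under 4 kb the median was -0.0091 over 14 motor genes and -0.048 over 8173 other genes.

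**Figure D4:**
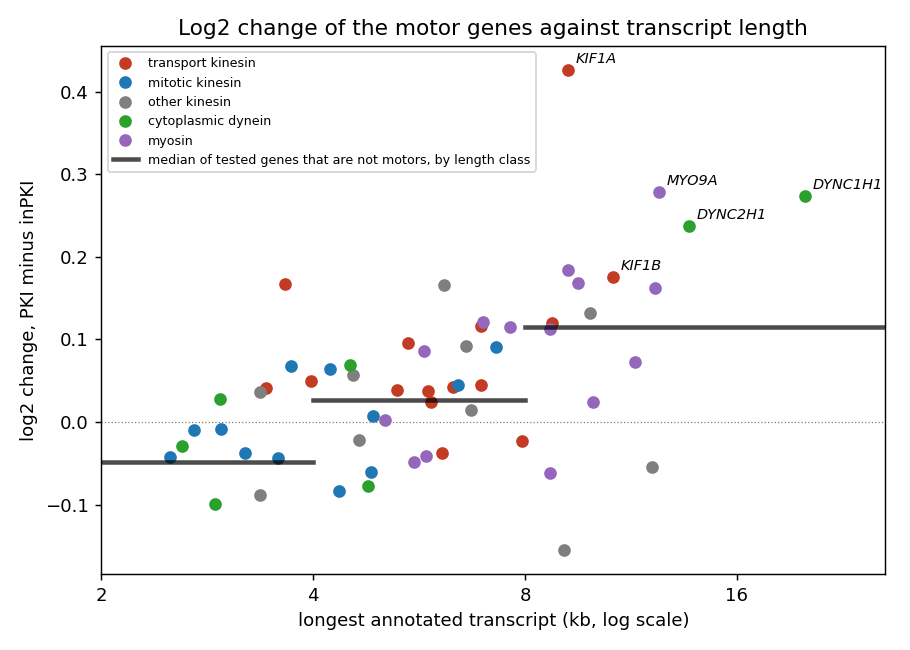
Log2 change of 58 of the 59 tested motor genes (points, coloured by class) against its longest annotated transcript in kb on a log axis; black lines mark the median of tested genes that are not motors under 4 kb, from 4 to 8 kb and from 8 kb. The lines step up from -0.048 to 0.12, most motor genes lie around them, and KIF1A at 0.43 lies well above the line of its length class.

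In every PKI library the median was higher for genes of 8 kb or more than for genes under 4 kb, most widely in PKI C and, for motor genes, least in PKI B. Motor genes of 8 kb or more had a median log2 ratio to the inPKI mean of 0.12, 0.11 and 0.15 in PKI A, B and C, and other genes of that length 0.097, 0.091 and 0.15. Motor genes under 4 kb had 0.017, 0.093 and -0.083 in PKI A, B and C, and other genes of that length -0.024, -0.0026 and -0.12. Motor genes from 4 to 8 kb had 0.024, 0.055 and 0.055, so that in PKI B the medians of motor genes did not follow the order of length. Without PKI C the long motor genes gave 7 of 16 at an unadjusted p below 0.05, 43.8%, against 31.1% of other long genes.

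With the trend of each library over transcript length removed, the log2 change of KIF1A was 0.33 (limma adjusted p = 0.111), that of DYNC1H1 0.070 (0.609), that of MYO9A 0.14 (0.462), that of DYNC2H1 0.083 (0.613), that of KIF1B 0.056 (0.635) and that of MYO5A 0.024 (0.917). The trend differs between the groups, so its removal also takes away any change of long genes as a class.

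**Figure D5:**
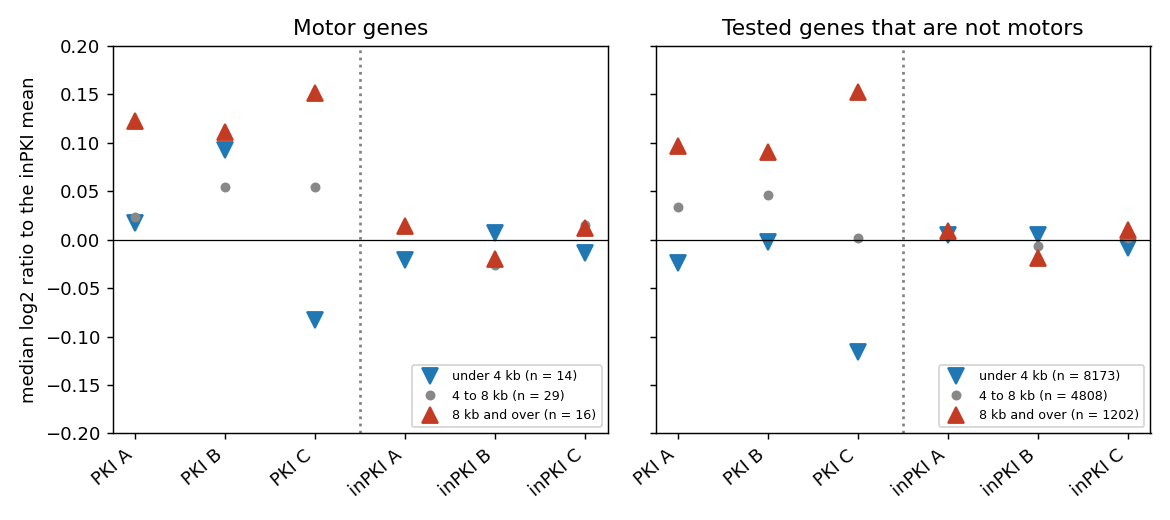
Median log2 ratio to the inPKI mean in each library, for motor genes (left) and for tested genes that are not motors (right), by transcript length. In all 3 PKI libraries the genes of 8 kb or more (upward triangles) stand above the genes under 4 kb (downward triangles), most widely in PKI C, and in inPKI libraries all medians lie within 0.026 of 0.

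The partners of the motors, together with CENPE and dynein subunits outside the rule, were read from lists that the symbols of the rule do not cover. Of 88 genes tested in the 4 lists, 0 passed in limma, against 0.0981% of all genes called higher and 0.028% called lower. DESeq2 called 6 of them higher, against 0.834% of all genes, and 0 lower, against 0.939% of all genes. Of 36 kinesin and dynein partners, 3 were higher and 3 lower at an unadjusted p below 0.05, shares close to the 7.53% higher and 6.16% lower of all genes tested, and the median log2 change was -0.019. SPAG9, a scaffold that links kinesin-1 and dynein to kinase signalling, had the smallest p, at 176 ± 2.74 CPM in PKI and 155 ± 0.656 CPM in inPKI (SD, n = 3 each; limma adjusted p = 0.158). The dynein light chain genes DYNLL1 and DYNLT1, chosen after their values were seen, measured 127 ± 7.32 and 48.6 ± 3.67 CPM in PKI, and 140 ± 3.14 and 54.9 ± 2.14 CPM in inPKI (limma adjusted p = 0.283 and 0.258). Their longest transcripts were 1376 and 2891 bases. The other light chain genes tested, DYNLL2, DYNLRB1 and DYNLT3, had overlapping groups and log2 changes of -0.025, -0.044 and 0.024.

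Of 18 myosin partners and MYH myosins, 3 were higher and 4 lower at an unadjusted p below 0.05, where all genes tested gave 7.53% higher and 6.16% lower. The smallest p was that of MYL6B, a myosin light chain, at 36.6 ± 1.26 CPM in PKI and 42.2 ± 1.40 CPM in inPKI (limma adjusted p = 0.176). MYH9, a heavy chain of non-muscle myosin, chosen after its values were seen, measured 360 ± 11.2 CPM in PKI and 322 ± 6.80 CPM in inPKI (limma adjusted p = 0.239). The other MYH genes of that list, MYH10 and MYH14, had overlapping groups and log2 changes of 0.035 and 0.027. Of 19 tubulins and microtubule-associated proteins, 2 were higher and 2 lower at that level, to be read beside those same shares of all genes. The smallest p was that of MAP1B, which stabilises axonal microtubules, at 80.1 ± 4.98 CPM in PKI and 66.3 ± 1.95 CPM in inPKI (limma adjusted p = 0.101). SPAG9 and MAP1B have longest transcripts of 8273 and 12036 bases, and MYL6B one of 1305 bases.

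PKA acts on transcription through CREB, which binds the cAMP response element TGACGTCA, so promoters of the motor genes were searched for it and for its shorter core TGACG, read on both strands, which lies within the element. RefSeq windows from 250 bases before to 50 after the gene start (GRCh38.p14) were found for 62 of the 73 motor genes. The full element was present in 1 of 62 windows, 1.61%, against 1.85% of 35116 promoters, and the core in 18 of 62, 29%, against 24.6%. The window with the full element was that of KIF15, a spindle kinesin whose log2 change was -0.061. Windows of KIF1A, DYNC1H1 and KIF15 are shown, without the 50 bases after the start, because KIF1A is the called gene, DYNC1H1 the motor gene with the next smallest p and KIF15 the carrier of the element; capitals mark every match to the core or the full element, 5′ to 3′ on the strand of the gene. KIF1A has no match in these bases, DYNC1H1 has 1, and KIF15 has the palindromic element and a further core. A match is a description of the letters and not evidence of binding.
KIF1A, chr2:240821404-240821653, minus strand: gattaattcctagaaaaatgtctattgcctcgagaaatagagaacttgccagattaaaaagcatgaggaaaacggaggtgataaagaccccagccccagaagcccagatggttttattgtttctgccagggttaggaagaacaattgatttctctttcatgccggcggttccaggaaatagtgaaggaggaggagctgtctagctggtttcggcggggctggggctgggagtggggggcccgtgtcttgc
DYNC1H1, chr14:101964323-101964572, plus strand: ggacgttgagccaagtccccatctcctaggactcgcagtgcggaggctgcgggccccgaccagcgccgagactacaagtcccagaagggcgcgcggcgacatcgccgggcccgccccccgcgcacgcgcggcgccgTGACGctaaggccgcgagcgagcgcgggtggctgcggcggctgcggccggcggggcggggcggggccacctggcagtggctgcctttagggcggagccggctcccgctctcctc
KIF15, chr3:44761544-44761793, plus strand: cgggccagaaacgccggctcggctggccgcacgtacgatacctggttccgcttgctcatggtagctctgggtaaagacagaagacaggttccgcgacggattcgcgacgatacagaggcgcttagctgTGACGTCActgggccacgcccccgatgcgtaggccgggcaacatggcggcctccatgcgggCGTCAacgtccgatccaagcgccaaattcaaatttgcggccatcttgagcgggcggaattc

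Exons of 34 of the 73 motor genes share annotated bases with another gene, in 30 of them with a gene on the opposite strand. Whether the authors' counting used strand is not given in the sources used here, so reads of such pairs cannot be told apart. KIF1A shares none, while DYNC1H1 shares 1033 bases with a pseudogene on the opposite strand and MYO9A shares 415 with an antisense gene.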

How the data were processed

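Libraries were prepared from HEK293 RNA with an mRNA kit, per the labels' protocols. Per the submitters' processing notes, the tools were STAR 2.5.2b, cutadapt 1.14, DESeq2 1.20.0 and RSEM 1.3.0, and the build was hg19; their roles are not given. The authors deposited a CPM table (30960 genes, 6 libraries), scaled by TMM as its name says. Their own comparison, per the file headers, holds a mean signal, a log2 fold change (opposite in sign to the signed fold change in all 30960 rows), a Wald score, a p-value and an adjusted p-value. Its mean is above 0 in 2069 genes at 0 in all 6 libraries.

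All deposited CPM values (100% within 0.01 reads) were whole multiples of 1 read. Genes with at least 1 CPM in at least 3 libraries (14275) were fitted as log2(CPM + 1), which understates changes of low genes, with limma 3.58.1 in R 4.3.3 (mean-variance trend, 2-sided, Benjamini-Hochberg over all genes tested, threshold 0.05); the motor genes were read out from that fit. With 3 libraries against 3, an exact permutation test cannot go below 0.1. The fit was tested on simulated counts. Alternatives were pseudocounts of 0.25 and 5, no filter, a filter of 5 CPM, median-ratio and equal-sum scaling, a replicate block, no trend, sample weights, DESeq2 1.42.0 and edgeR 4.0.16 run on the recovered reads, removal of length or of length and GC trends (lowess, span 0.3), and leaving out each library.

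The motor genes, classes and lists were chosen with earlier results of these data known. Values in each library are given for motor genes past the threshold and, per class, for the 4 smallest p and the 2 highest levels per kb; MYO15B, outside the class lists, was added to the myosins by its symbol. From each other list the genes past the threshold, or the one with the smallest p, are named. Lengths and positions come from GENCODE 29 (GRCh38) by gene identifier (30795 matched, 165 not; 73 of 73 motor genes), so positions are not those of the authors' alignment. KIF2B was not found in the table. Single values of 1 tested myosin are not reported here; it remains in the counts, medians and sums. Figures used matplotlib 3.10.9.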

Additional observations from a re-analysis of the deposited data

How the results depend on the processing

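KIF1A had a log2 change of 0.32 to 0.48 in all 19 alternatives and passed an adjusted p of 0.05 in 13 of them. The number of motor genes past that threshold, 1 as reported, was 0 with no filter on low values, without a trend, and with the length trend or the length and GC trends removed; it was 2 with the replicate block, 2 with sample weights and 4 by DESeq2, all higher, and ran from 0 to 2 with 1 library left out. DYNC1H1 was the second gene wherever there were 2, with adjusted p of 0.0492 (block), 0.0291 (weights), 0.0465 without PKI B and 0.0409 without PKI C, in a range of 0.000435 to 0.609. All genes past the threshold numbered 18 as reported, 4 with no filter, 4 without a trend, 124 with the replicate block, 144 with sample weights and 253 by DESeq2.

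The number at an unadjusted p below 0.05, 9 as reported (all higher), was 5 by DESeq2 and 6 (3 higher, 3 lower) with the length trend removed. It was 4 (2 higher, 2 lower) after removal of both trends, and ran from 6 to 8 with 1 library left out. Of 14275 genes tested, 1954 were at that level as reported, 1701 by DESeq2, 1480 with the length trend removed and 1503 with both removed. With 1 library left out that count ran from 1177 to 2420. The median log2 change of the motor genes, 0.041 as reported, was 0.015 with the length trend removed and 0.017 with both trends removed, and ran from 0.020 to 0.051 with 1 library left out. The cytoplasmic dynein median, 0.028 as reported, ran with 1 library left out from -0.061 (without PKI B) to 0.064, and that of the mitotic kinesins from -0.032 to 0.032 (without PKI C). The myosin median, 0.086 as reported, was 0.024 with either trend removal, and that of the other kinesins, 0.025 as reported, was 0.075 with the filter of 5 CPM and -0.0047 with the length trend removed. In the partner and mitosis lists the count of 0 became 1 with the block, 3 with sample weights and 6 by DESeq2, and ran from 0 to 2 with 1 library left out; these list alternatives were chosen after seeing the data. For the other changes the cause was not tested; a filter and a trend removal change which genes or values enter by construction.

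The labels do not state whether the letters A, B and C pair the libraries, and the main fit did not treat them as pairs. Deviations of same-lettered libraries correlated at 0.0171, 0.0138 and 0.0283, and those of other pairs at -0.0224 to 0.0101. Every library still correlated best with its own letter in the other group, as a hint from the data and not the design. The libraries held 17244715 to 23589438 recovered reads, and the part of counting error in the spread of single genes was not tested.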
